A study of Mus musculus with 7 samples.

Results

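RARα binding in mouse liver was compared between a diet with retinoic acid (RA) and a control diet. The members were all peaks of the 2 deposited RARα peak lists, 35521 under the control diet and 44296 under RA, out of 245004 peaks in the 6 lists of the series. Shared peaks were those with an overlap of at least 1 bp in the other diet's list. A peak of the RA list without such an overlap was called gained, and a peak of the control list without one was called lost. The other lists were made with antibodies to RARβ and RXRα.

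The livers came from wild type male C57BL/6 mice aged 3 months. The labels give 1 day of feeding on the normal (control) or the RA diet, whereas the methods of the study state more days on RA, so the duration is not settled. Chromatin was precipitated with 1 antibody per library and sequenced as single reads of 35 bp. Each receptor and diet had 1 library, and the number of mice behind a library is not given in the sources used here, so the differences described here compare libraries, carry no replicate error and were not tested. The files hold peaks and no read totals, so the depth of each library is unknown.

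RARα is a nuclear receptor that binds DNA as a heterodimer with RXRα. In the textbook account it sits on its sites with or without ligand, recruiting corepressors when RA is absent and coactivators when RA is bound. The favoured sites are direct repeats of a hexamer close to AGGTCA with a spacer of 1, 2 or 5 bases (DR1, DR2 and DR5). Liver takes up, stores and degrades retinoids, and RA in turn acts on genes of lipid and bile acid metabolism there.

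The promoters below are the 250 bases before an annotated RefSeq start (GRCm38.p6), written in the direction of transcription. Hexamers are in capitals, searched on both strands as AGGTCA with its variant GGGTCA, and as AGTTCA with its variant GGTTCA. The first pair holds a DR5 under a RARα peak called with both diets. Cyp26a1, the RA hydroxylase, starts after chr19:37697558-37697807 on the plus strand, and its DR5 at chr19:37697776-37697792 reads as the reverse complement. Rarb encodes RARβ, and the promoter shown, chr14:16575477-16575726 on the minus strand, lies inside its span.
Cyp26a1: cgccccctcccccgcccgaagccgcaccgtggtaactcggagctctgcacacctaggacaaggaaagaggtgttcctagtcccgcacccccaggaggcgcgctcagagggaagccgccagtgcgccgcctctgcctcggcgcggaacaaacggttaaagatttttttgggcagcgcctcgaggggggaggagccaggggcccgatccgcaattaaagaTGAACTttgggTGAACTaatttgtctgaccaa
Rarb: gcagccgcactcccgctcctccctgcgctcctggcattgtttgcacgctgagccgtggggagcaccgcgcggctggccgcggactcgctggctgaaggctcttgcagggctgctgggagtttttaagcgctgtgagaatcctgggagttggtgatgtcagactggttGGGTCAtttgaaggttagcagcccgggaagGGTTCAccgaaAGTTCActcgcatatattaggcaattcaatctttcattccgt

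Bco1, the enzyme that cleaves β-carotene to retinal, had a promoter peak in the control list only. Its promoter, chr8:117095615-117095864 on the plus strand, holds a DR1. Hpd, an enzyme of tyrosine breakdown, had the second highest lost peak, and its promoter at chr5:123182724-123182973 on the minus strand holds a single hexamer. Hhex, a homeobox factor of liver development, had the highest gained peak at a protein-coding start, and its promoter at chr19:37434591-37434840 on the plus strand holds none of the 4 hexamers.
Bco1: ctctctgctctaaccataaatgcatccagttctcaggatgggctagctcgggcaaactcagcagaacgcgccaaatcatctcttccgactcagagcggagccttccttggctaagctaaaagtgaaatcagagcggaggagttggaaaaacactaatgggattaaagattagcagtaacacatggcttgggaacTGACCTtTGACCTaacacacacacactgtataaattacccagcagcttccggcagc
Hpd: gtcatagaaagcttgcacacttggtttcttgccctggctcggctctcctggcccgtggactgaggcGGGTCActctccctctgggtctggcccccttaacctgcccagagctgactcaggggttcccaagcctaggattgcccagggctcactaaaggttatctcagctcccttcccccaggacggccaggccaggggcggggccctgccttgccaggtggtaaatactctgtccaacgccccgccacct
Hhex: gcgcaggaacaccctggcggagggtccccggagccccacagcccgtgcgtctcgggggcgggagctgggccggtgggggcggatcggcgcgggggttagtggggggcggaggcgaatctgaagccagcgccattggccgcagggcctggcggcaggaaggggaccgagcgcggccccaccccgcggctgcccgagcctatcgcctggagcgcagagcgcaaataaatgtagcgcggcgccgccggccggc

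Most RARα peaks of the control diet were also called under RA. Of the 35521 control peaks, 30052 were shared, which is 84.6% (Wilson 95% interval 84.2 to 85.0%), and 5469 were lost (15.4%). Of the 44296 RA peaks, 30615 were shared (69.1%, 68.7 to 69.5%) and 13681 were gained (30.9%). Intervals here and below cover counting error only. The RA list is the longer one, and the surplus of gained over lost peaks restates that, apart from peaks with several partners.

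The deposited score of a peak is the peak caller's value, which grows as its p-value falls. It is not on a common scale between the lists, so peaks were compared between diets by their percentile in their own list, with 100 as the highest, and scores are given only as each list's own values. Gained and lost peaks were mostly low in their lists. The median score was 74.13 for gained and 169.72 for shared peaks of the RA list, and 63.99 for lost and 130.81 for shared peaks of the control list. In the highest decile of the RA list 13 of 4430 peaks were gained (0.293%), against 3124 of 4429 in the lowest decile (70.5%). In the highest decile of the control list 3 of 3553 peaks were lost (0.0844%), against 1676 of 3552 in the lowest decile (47.2%). Of the 1000 highest peaks of the RA list 4 were gained, and the highest lost peak held rank 1104 of the control list.

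**Figure D1:**
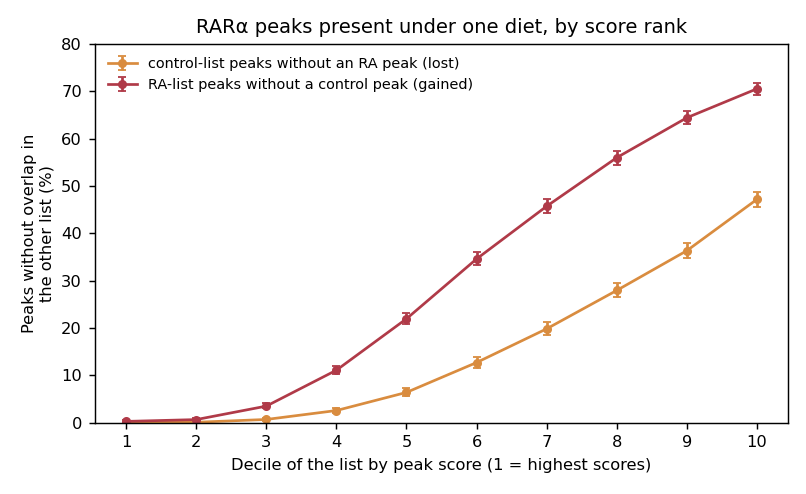
The percentage of RARα peaks without overlap in the other diet's list is plotted for each decile of the list by score, from the highest scores on the left, with Wilson 95% intervals. Gained peaks made up 0.293% of the highest and 70.5% of the lowest decile of the RA list, and lost peaks 0.0844% and 47.2% of those of the control list.

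Peaks of the RA list were more numerous but narrower, with a median width of 450 bp against 583 bp, and both lists covered a similar length of genome, 24.3 Mb under RA and 24.8 Mb under the control diet. Of the shared control peaks, 29281 overlapped a single RA peak, 762 overlapped 2 and 9 overlapped at least 3. In the 28925 pairs that matched 1 to 1, the RA peak was the narrower in 75.2% of cases, and the midpoints were a median of 54 bp apart. The overlap rule had few borderline cases. Only 110 of 30832 overlapping pairs overlapped by 50 bp or less, and 71 gained and 43 lost peaks lay within 50 bp of a peak of the other list. The median gap to the other list was 10120 bp for gained and 8699 bp for lost peaks. Gained peaks were spread over all chromosomes, from 27.4% of RA peaks on chromosome 7 to 36.8% on X and 44.8% on Y, where 26 of 58 peaks were gained.

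Shared peaks lay at gene starts more often than lost peaks, and lost peaks more often than gained peaks. The distance was taken from the peak midpoint to the nearest outermost start of a protein-coding gene. Within 1 kb of a start lay 28.7% of the shared RA peaks (28.2 to 29.2%), 10.8% of the lost peaks (9.99 to 11.6%) and 4.99% of the gained peaks (4.64 to 5.37%). Beyond 50 kb lay 23.1% of the shared RA peaks, 31.9% of the lost and 36.0% of the gained peaks. Read the other way, 7.22% of the RA peaks within 1 kb of a start were gained, against 34.4% at 1 to 10 kb, 35.9% at 10 to 50 kb and 41.0% farther out. Among control peaks the lost share was 6.50%, 16.4%, 18.4% and 19.9% in these 4 classes. Between 52.9% and 56.3% of the peaks of each class had their midpoint inside a protein-coding gene's span. When peaks scoring 100 or more were compared with the whole other list, the shares within 1 kb were 32.7% for shared RA, 22.4% for lost and 5.73% for gained peaks.

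**Figure D2:**
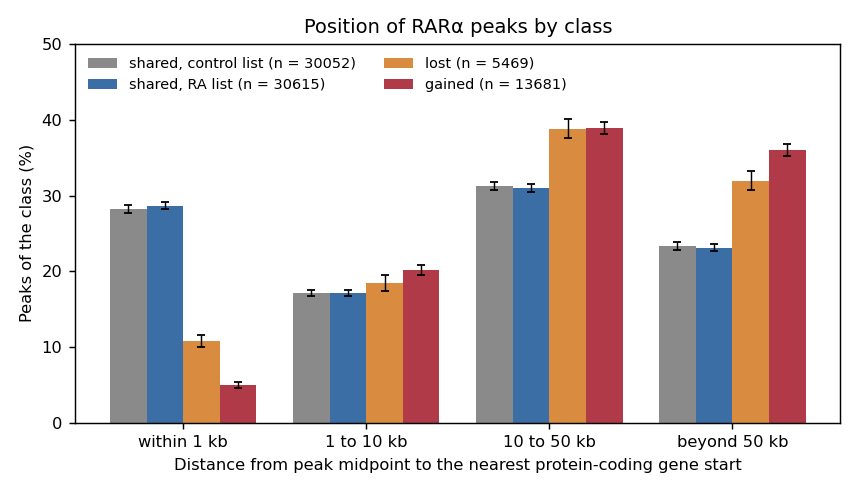
Bars give the percentage of shared, lost and gained RARα peaks in 4 classes of distance from the nearest protein-coding gene start, with Wilson 95% intervals. Within 1 kb lay 28.7% of shared RA, 10.8% of lost and 4.99% of gained peaks, whereas beyond 50 kb the order was reversed, at 23.1%, 31.9% and 36.0%.

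Most gained RARα peaks lay where RXRα, the heterodimer partner, was also called. RXRα peaks of the RA list overlapped 59.0% of the gained peaks (58.2 to 59.8%), 65.1% of the shared RA peaks (64.6 to 65.7%) and 49.4% of the lost peaks (48.1 to 50.8%). The RXRα list of the control diet already held peaks at 58.0% of the gained sites, and 54.3% of the gained sites had RXRα peaks under both diets. Only 4.71% of the gained RARα peaks overlapped an RXRα peak called under RA alone. The gained sites beyond 10 kb of a start overlapped the RXRα list of RA in 60.6% of cases and the shared sites there in 57.1%. At gene starts, within 1 kb, the corresponding values were 48.3% and 82.7%.

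RARβ, the paralog with the same ligand, showed another pattern. The RARβ list of the control diet overlapped 9.18% of the gained and 10.8% of the lost RARα peaks, against 35.3% of the shared RA peaks. The RARβ list of RA overlapped 35.5% of the gained, 26.1% of the lost and 56.0% of the shared RA peaks. The RARβ list itself was longer under RA, with 29467 peaks against 14968, and its part in these shares was not tested. A RARβ peak under RA alone was found at 28.5% of the gained, 24.4% of the shared RA and 19.7% of the lost RARα peaks. RXRα peaks under both diets together with a RARβ peak under RA alone marked 26.4% of the gained, 19.9% of the shared RA and 17.2% of the lost peaks. In none of the 4 lists lay 35.6% of the gained, 40.5% of the lost and 24.5% of the shared RA peaks.

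**Figure D3:**
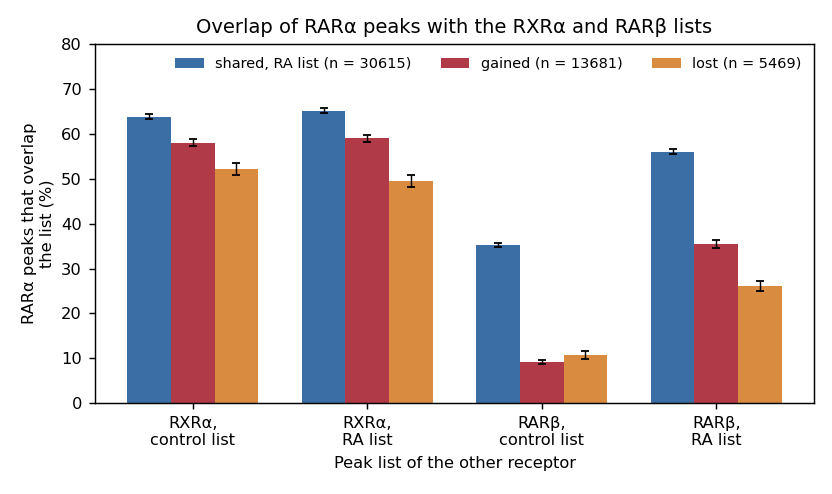
Bars give the percentage of shared (RA list), gained and lost RARα peaks that overlap each RXRα or RARβ peak list by at least 1 bp, with Wilson 95% intervals. The RXRα overlap of gained peaks was 58.0% with the control list and 59.0% with the RA list, whereas their RARβ overlap was 9.18% and 35.5%.

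Shared peaks kept much of their order. Spearman's rank correlation between the scores of the 28925 1-to-1 pairs was 0.761, with 0.828 for the 7908 pairs within 1 kb of a start and 0.684 for the 16051 pairs beyond 10 kb. All pairs shared the same genome and the same 2 libraries, and no p is given. When each pair was given its score percentile among all pairs, with 100 as the highest, pairs within 1 kb of a start had a median change of −4.28 points from control to RA, and 33.5% of them stood higher. Pairs beyond 10 kb stood 2.44 points higher, and 56.0% of them stood higher under RA. This scale balances rises and falls over all pairs. On percentiles of the full lists the median change over all pairs was 4.51 points. Against that, the pairs within 1 kb changed by −0.424 points, with 52.8% of them lower. The pairs beyond 10 kb changed by 8.40 points, with 30.2% lower.

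**Figure D4:**
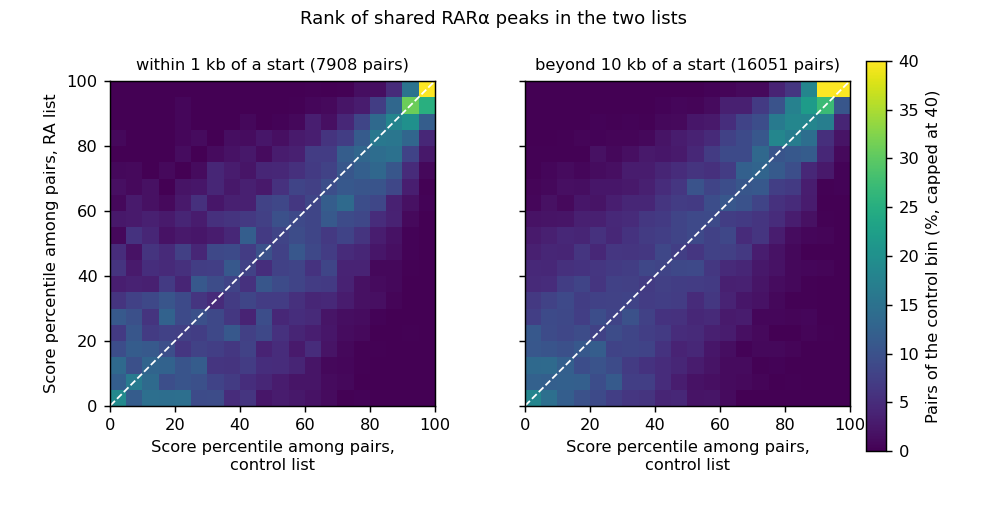
Score percentile among 1-to-1 pairs in the control list (x axis) and the RA list (y axis), for pairs within 1 kb of a start and beyond 10 kb, as the percentage of each control bin of 5 points. The dashed line marks equal percentiles, and the median change was −4.28 points within 1 kb and 2.44 points beyond 10 kb.

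The 10 highest gained peaks lay mostly on starts of protein-coding genes. The highest, at chr19:5802278-5803003 with a score of 818.27 (rank 188 of the RA list), overlapped Malat1, an abundant nuclear noncoding RNA, and lay 113 bp from a control peak. The peak of Hhex, at chr19:37433813-37435388, had a score of 790.83 (rank 214) with its midpoint 240 bp upstream of the start, and the nearest control peak was 13701 bp away. Apob, the structural protein of very low density lipoproteins, had a peak of 2279 bp at chr12:7977210-7979488 with a score of 626.75 (rank 571). Apob had no control peak within 10 kb of its start.

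Plk3, a stress-responsive kinase, followed with 612.48 and Xbp1, a transcription factor of the unfolded protein response, with 526.89. The chaperone gene Hspa8 had a gained peak with a score of 472.57 and Fga, the fibrinogen α chain, one with 463.55 at chr3:83025872-83027508. Onecut1, a hepatocyte transcription factor also called HNF6, had a gained peak with a score of 433.51 at chr9:74861603-74862103. The α1-antitrypsin genes Serpina1b (484.9) and Serpina1d (393.62) completed the set, but these are near-identical copies whose short reads could be assigned to either, so their values are uncertain. Of the 10 peaks, 9 lay within 1 kb of a start, against 4.99% of all gained peaks, and 9 were wider than the upper quartile of the RA list, 614.25 bp. All 10 overlapped an RXRα peak of the control list, against 58.0% of all gained peaks. A RARβ peak of the control list overlapped 9 of the 10, against 9.18% of all gained peaks. These traits did not extend down the list. Among gained peaks 51 to 500 by score, 20 of 450 lay within 1 kb of a start (4.44%). An RXRα peak of the control list overlapped 270 of these 450, and a RARβ peak of the control list 72.

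Of the 10 highest lost peaks, several lay at metabolic genes and others did not. Selenbp2, a selenium-binding protein gene, had the highest, a peak of 2838 bp at chr3:94692716-94695553 with a score of 510 (rank 1104 of the control list). Hpd, which makes homogentisate in tyrosine catabolism, had a lost peak with a score of 400.36 at chr5:123181420-123183125, and its nearest RA peak was 12240 bp away. Scp2, a sterol carrier and peroxisomal thiolase gene, had a lost peak with 390.97 inside its span, 14.3 kb from the start, with an RA peak 3193 bp away.

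Rgcc (300.58), Cyp4a12b (254.28), Ass1 (222.46), Eif2s3y (222.2) and Pdp1 (221.23) had lost peaks within 1 kb of their starts. Ass1 makes argininosuccinate in the urea cycle, Cyp4a12b is a fatty acid ω-hydroxylase with close paralogs, and Eif2s3y is on chromosome Y. A further lost peak lay inside Fmo5 (284.48), a flavin monooxygenase gene. Another, at chr10:47653409-47654783 (287.72), was over 2 Mb from the nearest protein-coding start, that of Hace1 at a distance of 2076 kb. The peak at Pdp1 lay 223 bp from an RA peak. Of the 10 highest lost peaks, 7 lay within 1 kb of a start, against 10.8% of all lost peaks. Of the same 10, 8 were wider than the upper quartile of the control list, 800 bp.

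The highest-scoring peaks of each list say little about genes. Those of the RA list were called in all 4 lists of the other receptors as well, as were those of the control list, and lay from 25.9 kb to 2349 kb from the nearest protein-coding start. A peak near chr2:98665966-98667409 and a peak of 5009 bp at chr1:24611364-24616372 were among the 5 highest of both lists. The control list held 4 and the RA list 9 peaks with a score of 3100 or more.

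Among 1-to-1 pairs in the top 5000 of either list, the largest increase in score percentile was at chrX:142200361-142200715, 3.25 kb from the start of Gucy2f, a retinal guanylate cyclase gene, where the percentile was 3.49 in the control and 91.5 in the RA list. The peak near Plxna4, a semaphorin receptor gene, had percentiles of 7.62 and 94.2, that in Myof 3.64 and 89.0, that near Rps6ka1 13.96 and 89.9, and that near 1700010I14Rik, inside Pde10a, 17.8 and 89.6. None of these 5 lay within 1 kb of a start. Those near Gucy2f and 1700010I14Rik and in Myof overlapped no peak of the RXRα and RARβ lists. The one near Plxna4 overlapped RXRα of the control list only, and the one near Rps6ka1 overlapped RXRα and RARβ of the RA lists. The largest decrease was 5.56 kb from the start of Klf9, a Krüppel-like factor gene. The control peak there, a broad one at chr19:23133728-23137596, overlapped the noncoding RNA gene 2410080I02Rik. It stood at percentile 89.0 of the control list and its partner at 0.677 of the RA list. The peaks at the start of Klf9 itself stood at 88.9 in the control and 92.4 in the RA list. The next largest decreases were near Bicd1 (86.4 and 19.7), Polr3k (91.6 and 31.4), Pde12 (88.3 and 32.3) and Zfp9 (92.3 and 37.4), the last 3 at their starts.

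Genes with many unshared peaks were long. Arhgap26, a GTPase-activating protein gene of 775 kb, had 19 gained and 5 lost peaks within its span or 10 kb of it. Vps13d and Itpr1 had 15 gained peaks each, and Gse1 and Lpp 13 each. Zbtb20, a hepatic repressor gene of 759 kb, had the most lost peaks, 11, beside 12 gained ones. Foxp1, a forkhead repressor gene, had 6 lost and 11 gained peaks. Tshz2, Stard13 and Pde3a had 5 lost peaks each, beside 3, 9 and 4 gained ones.

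At the level of genes, binding under both diets prevailed. Bound genes were those with at least 1 peak midpoint no more than 10 kb from the outermost start. Of 21536 protein-coding genes, 12791 were bound under both diets (59.4%), 835 under RA only (3.88%), 530 under the control diet only (2.46%) and 7380 under neither. At equal list length the numbers were 12402, 544 and 919. Genes bound under 1 diet had weak peaks, with a median best percentile of 28.3 in the RA list for RA only and 25.8 in the control list for control only, against 80.6 in the RA and 80.3 in the control list for genes bound under both. These shares of all genes (59.4%, 3.88% and 2.46%) are the background for the counts per gene list below, and 61.9% of all genes had a peak under the control diet and 63.3% under RA. Of the 3651 genes with a gained peak, 77.3% were bound under both diets, as were 70.9% of the 1819 genes with a lost peak. An RXRα peak of the RA list lay within 10 kb of the start in 91.0% of the genes bound under both diets, 59.0% of those bound under RA only, 53.4% of those bound under control only and 12.0% of the rest.

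Cyp26a1, the enzyme that inactivates RA and a known target of RARs, had a promoter peak in both lists that stood far higher in the RA list. In the control list this peak, chr19:37697563-37698053, had a score of 79.52 and stood at percentile 31.8. In the RA list the promoter peak, chr19:37697371-37698319, had a score of 490.32, rank 1630 and percentile 96.3. A downstream pair, 6361 and 6379 bp from the outermost start at chr19:37697738, had scores of 86.49 in the control and 253.02 in the RA list. Control peaks 1827 bp upstream (101.27) and 4870 bp downstream (63.33) of the start were lost, and the upstream one was the best control peak of the gene, at percentile 45.1.

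The promoter peak of Cyp26a1 was shared with RXRα under both diets and with RARβ under RA only. The DR5 printed above began 32 bases upstream of the RefSeq start of that promoter, inside the promoter peak of both lists.

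The promoter inside Rarb printed above also held a peak in both lists. The control peak, chr14:16574918-16576021, had a score of 264.57 (percentile 83.0), and the RA peak, chr14:16575158-16575836, 481.23 (percentile 96.1). All 4 lists of the other receptors held a peak there. No RARα peak lay within 10 kb of the outermost start of Rarb, so the gene is counted as bound under neither diet below. A DR5 of the 4 hexamers was found in 17 of 21263 RefSeq promoter windows of protein-coding genes (0.0800%), counting both strands and 250 bases before to 50 bases after the start. The promoter windows of Cyp26a1, Rarb and Blvrb had a RARα peak under both diets, and the other 14 under neither, whereas 43.2% of all windows had a peak under both diets and 51.5% under neither. At Blvrb, a biliverdin reductase gene, the percentiles were 45.7 in the control and 46.9 in the RA list. A DR1 was found in 39 windows, of which 22 had a peak under both diets, 3 under control only and 14 under neither. A DR2 was found in 19, of which 6 had a peak under both diets, 2 under RA only, 1 under control only and 10 under neither.

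Single hexamers were no more frequent in promoters with a RARα peak than in others. At least 1 of the 4 hexamers was present in 37.2% of the 9193 promoter windows with a peak under both diets, 40.8% of the 449 with a peak under RA only, 39.8% of the 669 under control only, 44.6% of the 10952 without a peak and 41.2% of all. The windows bound under both diets had a median GC content of 62%, against 50.3% for those without a peak.

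Of the 6 genes of retinoid receptors, Rara, Rxra and Rxrb were bound under both diets and Rarb, Rarg and Rxrg under neither. The best peaks of Rara and Rxra lay at different sites in the lists. At Rara the best control peak, 5530 bp downstream of the start, stood at percentile 55.3, and the RA peak that overlaps it at 14.3. The best RA peak of Rara, 5366 bp upstream, stood at 79.1, and the control peak that overlaps it at 45.2. At Rxra the best control peak, 4370 bp upstream, stood at 51.9 with an RA partner at 8.44. The best RA peak of Rxra, 4 bp from the start, stood at 78.5 with a control partner at 6.65. The best peaks of Rxrb overlapped at its start, with 84.7 in the control and 78.6 in the RA list. Inside the spans of the genes without a peak at the outermost start, Rarb held 5 control and 4 RA peaks, Rarg 2 and 3, and Rxrg 2 and 2.

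Of the 11 genes of RA catabolism, 9 were bound under both diets, 1 (Cyp2c37) under RA only and Cyp26c1 under neither. The single peak of Cyp2c37, on its start, had a score of 150.7. In this and the following lists, paired values are percentiles of a gene's best peak, first in the control and then in the RA list, and the best peaks of the 2 lists overlap unless stated. Cyp3a11, a broad-specificity cytochrome P450, had 30.6 and 70.5, and Cyp2c54 14.9 and 58.3. Cyp2c70 (81.9 and 68.0) and Cyp2c38 (33.7 and 23.0) stood lower under RA, as did Cyp26b1 (74.8 and 58.4), whose best peaks lay at different sites. The Cyp2c genes are close paralogs, and short reads may be shared among them.

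Among 22 genes of retinoid synthesis and interconversion, 19 were bound under both diets, Rdh11 and Bco1 under the control diet only and Aldh1a1 under neither. The lost Bco1 peak, chr8:117095627-117096059, had a score of 148.61 and covered the DR1 printed above. Rdh11, a retinal reductase gene, had lost peaks with 88.14 and 83.25. Among the aldehyde dehydrogenase genes, Aldh1a3 had 51.2 and 76.9 and Aldh1a7 53.9 and 65.7. Aldh1a2 had 47.6 and 20.6 at different sites, and its best control site stood at 13.3 under RA. Aldh1a1 held 5 control and 7 RA peaks inside its span of 151 kb but none within 10 kb of its outermost start. Rdh10, which makes retinal for RA synthesis, had 95.7 and 76.3, with a peak that also lies at Rpl7. Dhrs3, which reduces retinal, had 47.4 and 58.7.

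Of 14 genes of retinoid storage and transport with a start, 6 were bound under both diets, Stra6l under RA only, Rbp4 and Lpl under the control diet only and 5 under neither. Rbp4, the plasma carrier of retinol, had 2 lost peaks, of which the larger spanned 7295 bp at chr19:38118121-38125415 with a score of 78.27. Ttr, the plasma partner of Rbp4, had 72.7 and 96.8. Stra6l, a retinol-binding protein receptor gene, had a best score of 63.82 under RA (percentile 14.1), and Lpl, lipoprotein lipase, 75.39 under the control diet (28.6). Lrat, which esterifies retinol for storage, had 56.6 and 38.7.

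Of 20 genes listed as classic RA targets, 14 were bound under both diets, 1 under the control diet only and 5 under neither. The best peak stood higher under RA in 11 of the 14, of which 7 had it at the same site. Hoxa5 had 69.1 and 90.3 and Fgf21, a fasting hormone, 58.2 and 78.4. Nr0b2, the bile acid-responsive corepressor SHP, had 69.9 and 90.5 at different sites, and its best control site stood at 83.8 under RA. Its best RA site stood at 69.2 in the control list. Cpt1a (74.5 and 61.9) and Hoxa4 (52.8 and 37.8) stood lower.

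The change of a gene's best peak was summarised for 20 gene lists as the RA minus control difference in percentile, over genes bound under both diets. The best peak need not be the same site under both diets. It was in 11415 of the 12791 such genes (89.2%), and the 1376 others compare different peaks near the same start. Over all 12791 genes the median change was 0.262 points (quartiles −6.10 and 7.63), with 52.0% higher under RA, and over the genes with overlapping best peaks 0.188.

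Plasma protein genes had a median change of 22.0 points, with 16 of 19 higher, and 24.1 for the 15 with overlapping best peaks. RA catabolism had 18.0 (6 of 9 higher), with the same value for the 7 with overlapping best peaks. Bile acid synthesis and transport had 14.1 (20 of 25) and 9.70 for the 19 with overlapping best peaks, retinoid storage 12.6 (4 of 6, all overlapping) and classic RA targets 12.2 (11 of 14) and 8.33 for 10. Apolipoproteins had 12.3 (9 of 13) but 0.156 for the 9 with overlapping best peaks. The value of retinoid receptors, 23.8 over 3 genes, is the difference between the 2 sites of Rara, and the single receptor gene with overlapping best peaks fell by 6.10 points. The best control sites of Rara and Rxra stood lower under RA. Their best RA sites stood higher, with 45.2 and 79.1 for Rara and 6.65 and 78.5 for Rxra.

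The lowest median was that of cholesterol synthesis and uptake, at −3.08 with 6 of 26 higher, and −3.68 for the 23 with overlapping best peaks. Lists of genes used in every cell were near the median of all genes, with 0.505 for 90 genes matching the names of ribosomal proteins and 1.39 for 48 complex I genes. The ribosomal pattern takes in 10 kinase genes named Rps6k among its 97 members.

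Best peaks were also ranked among the 12791 genes alone, where the median over all genes was −0.00782. This scale balances rises and falls over all genes by construction. The order of the lists then changed, with retinoid receptors at 27.9, apolipoproteins at 17.1, plasma proteins at 11.5 and retinoid storage at 9.08. Retinoid synthesis followed at 8.88, RA catabolism at 8.40 and bile acid genes at 7.89. Fatty acid and triglyceride synthesis stood at 6.50, classic RA targets at 5.71 and fatty acid oxidation at 5.69. Cholesterol genes stood at −9.28 on this scale.

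**Figure D5:**
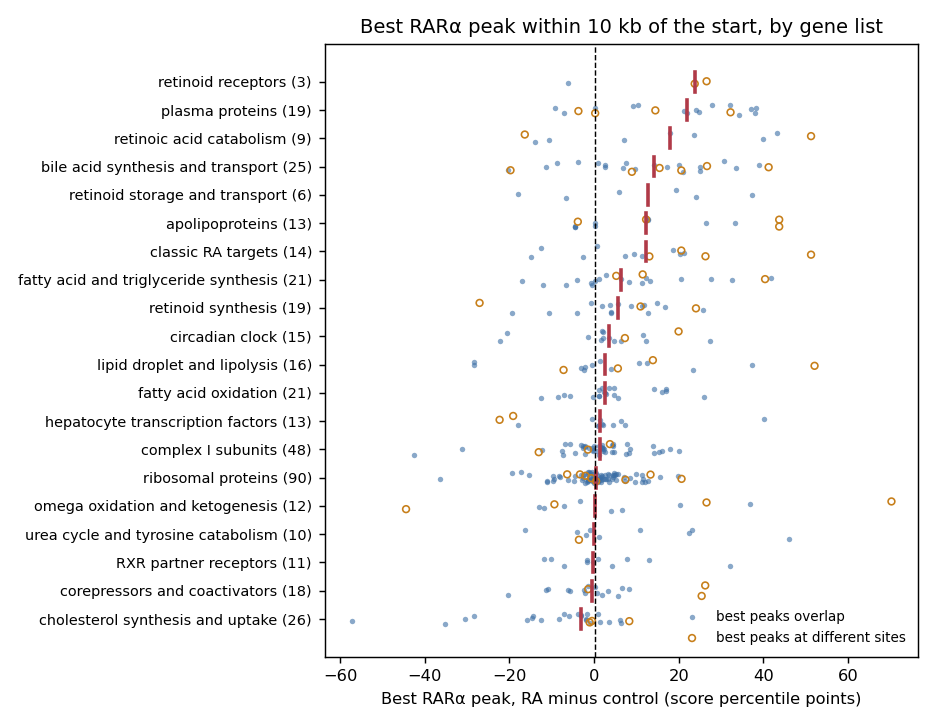
Each point is a gene bound by RARα under both diets, placed by the RA minus control change in score percentile of its best peak within 10 kb of the start, filled where the best peaks of both diets overlap and open where they lie at different sites. The red bars are list medians, with the number of genes in parentheses. The dashed line is the median of all 12791 genes, 0.262 points; plasma proteins had a median of 22.0 and cholesterol synthesis and uptake −3.08.

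Plasma protein genes, which hepatocytes transcribe heavily, had 4 of 25 members bound under RA only, which is 16.0% against 3.88% of all genes. These were Fga (score 463.55), Saa1 and Saa2 (101.35, a shared peak between close paralogs) and Ahsg (53.06). None was bound under the control diet only, and Alb and Serpina1a were bound under neither. Inside their spans, Alb held 1 control and 1 RA peak and Serpina1a 0 and 1. Hamp, the iron regulator hepcidin, had percentiles of 54.4 and 92.4, C3, a complement component, 59.2 and 91.4, and Hpx, the heme carrier, 67.6 and 95.6.

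Of 15 apolipoprotein genes, 13 were bound under both diets and Apob under RA only. The neighbours Apoe and Apoc1 shared their best peaks, with percentiles of 24.0 and 67.7, but at different sites, and the best control site stood at 21.1 under RA. Apoa1 and Apoc3 shared a peak with 97.5 and 93.1.

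Bile acid genes were bound under both diets in 25 of 26 cases, with Slc51a bound under neither. Slc10a1, the hepatic uptake transporter NTCP, had percentiles of 46.7 and 88.0 at different sites, and its best control site, 7147 bp upstream, stood at 66.7 under RA. Its best RA site, at the start, stood at 28.2 in the control list. Baat, which conjugates bile acids, had 18.9 and 57.9, and Abcg5 and Abcg8, which export sterols and share a promoter, had 71.0 and 96.1. Cyp7a1, the rate-limiting enzyme of bile acid synthesis, had 61.2 and 70.9. Abcc2 (76.1 and 55.9) stood lower under RA, as did Cyp8b1 (43.4 and 23.6 at different sites).

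All 26 genes of cholesterol synthesis and uptake were bound under both diets, and 20 stood lower in the RA list. Nsdhl had percentiles of 77.6 and 20.3, Sqle, squalene epoxidase, 94.9 and 59.6, and Cyp51, lanosterol demethylase, 92.2 and 61.7. Srebf2, the activator of the pathway, had 94.1 and 79.7. Insig1, its sterol-dependent inhibitor, had 98.2 and 99.6.

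Genes of fatty acid oxidation were bound under both diets in 21 of 22 cases, and the other one under RA only. The median change was 2.50 points, with 16 of 21 higher. Hadha and Hadhb share a promoter peak with percentiles of 78.0 and 94.98. In ω-oxidation and ketogenesis 12 of 14 were bound under both diets, 1 under RA only and Cyp4a12b under control only. Pdk4, which restrains pyruvate oxidation, had 46.7 and 83.6. Bdh1 had 11.01 and 81.3 at different sites, and its best control site stood at 39.97 under RA. Cyp4a12a had 60.8 and 16.4, and its best control peak was lost. The median change of the list was 0.334 points.

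In fatty acid and triglyceride synthesis 21 of 23 genes were bound under both diets, and Me1 (score 134.23) and Scd1 (75.67) under RA only. The median change was 6.48 points, with 15 of 21 higher. Lpin1 had percentiles of 19.8 and 61.5, whereas Elovl1 had 84.02 and 67.0. Acacb had 29.3 and 69.7 at different sites, and its best control site stood at 32.3 under RA. All but 1 of the 17 lipid droplet genes were bound under both diets. Cidec, a lipid droplet fusion factor, had 35.3 and 87.4 at different sites, and its best control site stood at 26.9 under RA. The adjacent Plin4 and Plin5 shared a peak with 88.6 and 60.2.

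Of 18 hepatocyte transcription factors, 13 were bound under both diets, Hhex and Onecut1 under RA only, Prox1 (score 108.76) and Gata4 (55.46) under control only and Hnf4a under neither. Hnf4a held 2 control and 5 RA peaks inside its span of 66.1 kb but none within 10 kb of its outermost start. Foxa2, a pioneer factor, had percentiles of 55.8 and 95.9. Onecut1 had 4 gained peaks within 10 kb of its start and Hhex 3. Of 20 corepressors and coactivators, 18 were bound under both diets, with a median change of −0.603 points. Of 13 RXR partner receptors, 11 were bound under both diets, with a median change of −0.321. Nr1h4, the bile acid receptor FXR, had percentiles of 52.9 and 85.2 and Ppara 96.1 and 84.4.

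In the urea cycle and tyrosine catabolism 10 of 13 genes were bound under both diets, Tat under RA only (score 78.96), and Hpd and Ass1 under control only. Ass1 also had a shared peak of the control list 9797 bp upstream, whose RA partner has its midpoint past 10 kb. Cps1, the entry enzyme of the urea cycle, had percentiles of 11.9 and 58.0. Of 19 circadian clock genes, 15 were bound under both diets and Npas2 under RA only, with a median change of 3.45 points.

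Marker genes of liver cell types were checked in the same way, beside 61.9% of all genes with a peak under the control diet and 63.3% under RA. Of 10 hepatocyte markers, 4 had a peak on the control diet and 7 on RA, with Alb, Serpina1a and Hnf4a bound under neither. The counts were 3 and 2 of 8 for stellate cells, 1 and 1 of 8 for Kupffer cells, 6 and 7 of 8 for endothelial cells and 3 and 4 of 8 for cholangiocytes. Inside their spans, Alb held 1 control and 1 RA peak, Serpina1a 0 and 1, and Hnf4a 2 and 5. The median change of the best peak was 18.2 points for the 4 hepatocyte markers bound under both diets (3 higher), which include Ttr and Cps1 of the lists above. It was 25.1 for 6 endothelial markers (4 higher), but −24.9 for the 3 of these with overlapping best peaks. The 2 stellate markers had −13.7, the 3 cholangiocyte markers −3.53 and the single Kupffer marker −0.140. Their part in the list medians was not tested. A RARα peak does not tell which cell type it came from, and the cell makeup of the livers was not measured.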

How the data were processed

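RARα peak lists came from 1 ChIP library per diet. Per the labels, reads were processed with CASAVA 1.4 and Bowtie on mm10; the study's methods name MACS as the peak caller. The deposited score is the authors' peak caller value, not normalized between libraries, and served to rank peaks within a list. The 6 lists were used as deposited, 35521 RARα peaks under the control diet and 44296 under RA; depth is unknown.

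Lists were compared by overlap of at least 1 bp in Python 3.11.15, tested on simulated lists and against bedtools 2.31.1. Gene spans came from RefSeq GRCm38.p6, with strand from its promoter table (17492 genes) or GENCODE M1 (4044 genes); 351 of 21887 protein-coding genes without strand were left out. Peak sequences, exons and introns were not analysed here, since no genome of the files' build was used. Promoters were the 250 bases before and 50 after a start. Intervals are Wilson 95% intervals.

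Named were the 10 highest gained and lost peaks, the 5 highest of each list, the 5 largest changes in rank percentile each way, the 5 genes richest in gained and in lost peaks, genes of the retinoid lists bound under 1 diet and up to 4 such genes of each other list. All other list members named, the windows with direct repeats, the GC content and the check of whether best peaks overlap were added after values were seen. The members and lists were chosen with earlier results of these data known. Pnpla4 and C5 were not found by symbol. Some members of the gene lists are counted but not reported by name here.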

Additional observations from a re-analysis of the deposited data

How the results depend on the processing

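There was 1 library per diet, so no replicate could be left out. No paired analysis was possible because each diet had 1 RARα library and the results come from no test. Requiring 25% reciprocal overlap, or counting peaks under 500 bp apart as shared, left the counts of shared, gained and lost peaks within 1.5 times; gained peaks within 1 kb of a start were then 5.73% and 4.12%, and lost peaks 9.77% under the gap rule. With a score of at least 100 in both lists, 17542 control peaks were shared, 8891 were gained and 2225 lost. Scores are not on a common scale, so 100 is not the same cutoff in the 2 lists. Its part in these counts was not tested. The shares within 1 kb were then 8.09% (gained), 24.3% (lost) and 40.2% (shared RA). The RXRα share was 56.6% for lost and 69.3% for shared RA peaks, and the RARβ share 46.7% (gained), 43.9% (lost) and 63.0% (shared RA). The rank correlation of the pairs was 0.704. With a score of at least 100 for the called peak alone, 19196 control peaks were shared, 3211 gained and 571 lost, and 276 genes were bound under RA only and 112 under control only. The shares within 1 kb were 5.73%, 22.4% and 32.7%, with RXRα 61.5%, 53.4% and 66.3% and with RARβ 47.2%, 35.6% and 58.9%, each for gained, lost and shared RA peaks. At equal list length 7754 peaks were gained, 544 genes were bound under RA only and 919 under control only, and 30.0% of shared RA peaks lay within 1 kb. Gained peaks then overlapped RXRα in 60.4% and RARβ in 40.1%, lost peaks in 53.4% and 31.7%, and shared RA peaks RARβ in 57.1%. Equal lengths force gained and lost counts near each other by construction. The order of genes bound under RA only and under control only was reversed at that setting. With a window of 50 kb, 326 genes were bound under control only. With a window of 1 kb, 29 genes of the 20 lists pooled were bound under RA only and 25 under control only, against 18 and 10 at 10 kb. At equal list length and 10 kb these pooled counts were 14 and 15. With all starts of the RefSeq promoter table, added after seeing the data, the shares within 1 kb were 4.24% (gained), 9.93% (lost) and 26.6% (shared RA). The rank correlation and promoter alternatives were also added then, as were overlapping best peaks and ranks among genes for the changes per gene list. Of the counts per single list, 55 of 60 stayed within 1.5 times at equal length and 33 of 60 with the 1 kb window. Of the median changes in best-peak percentile, per list and over all genes, 15 of 21 stayed within 1.5 times with overlapping best peaks and 4 of 21 with ranks among genes. The sign turned for retinoid receptors in the former (−6.10, 1 gene) and over all genes in the latter (−0.00782). Ranks among genes balance rises and falls over all genes by construction, so that last sign carries no information. The order of the shares within 1 kb, shared RA above lost above gained, held under every alternative run. Gene counts do not use the overlap rule, so its alternatives gave no gene values.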
